A study of Manacus vitellinus and Taeniopygia guttata with 24 samples.

Results

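Of 14926 genes with a value in at least 1 of 24 libraries, 28 were higher in the pectoralis than in the scapulohumeralis caudalis of every zebra finch but not, by the means of 6 libraries each, in the golden-collared manakin. These members were selected by their measured levels, in RPKM (a read count divided by the length of the gene and by the total of the library, as deposited, with 0 for a gene that has no entry). A member had at least 1.3 times as much RPKM in pectoralis as in scapulohumeralis caudalis in each of 6 finches. Its finch pectoralis mean and its mean over the 12 manakin libraries were each at least 5 RPKM, and its manakin mean in pectoralis was lower than in scapulohumeralis caudalis or exceeded it by less than 25%. The muscle differences, the species difference in them and the levels were thus used to choose the genes, and are given here as descriptions that support nothing. The rule compared no treatments, and the response to them was tested, but its limits on levels and on muscle ratios can depend on a treatment. In manakin 4 members reached 5 RPKM through 1 treatment only, 3 of them through +T and 1 through -T, and some of them mainly through 1 bird. Their manakin treatment differences are therefore not independent of the choice. In finch, ENSTGUG00000001194, the member with the lowest PEC mean, was at 6.17 RPKM in T-only and 4.80 RPKM in flutamide PEC. It thus reached the finch limit of 5 RPKM through the T-only birds, and its finch PEC treatment difference is not independent of the choice. The limit on the manakin ratio also favoured genes with a high value in scapulohumeralis caudalis, even in 1 bird of 1 treatment. Some of the other 24 members met it only through 1 +T library, so these 24 are not free of the choice either.

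The study sequenced polyadenylated RNA from both muscles of 6 golden-collared manakins (Manacus vitellinus) and 6 zebra finches (Taeniopygia guttata), 3 birds for each treatment. Manakins had a testosterone implant (+T) or a blank one (-T). Finches first received a blank implant (T-only) or one with the antiandrogen flutamide, and testosterone was then given to all of them, so both finch groups carried added testosterone and the 2 species had different treatments. The sample characteristics describe the flutamide birds as having no testosterone, which differs from the protocol followed here. The protocol speaks of males, and the labels give no age, strain or time from implant to sampling. In each species, libraries of PEC and SH with the same number and treatment came from the same bird.

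The pectoralis (PEC) is the large breast muscle that drives the downstroke of the wing in flight, and the scapulohumeralis caudalis (SH) is a small shoulder muscle that retracts the wing. Male golden-collared manakins use the wings in an acrobatic courtship display with loud wing snaps, for which SH is a known target of androgens, whereas the zebra finch courts mainly with song. Testosterone is an androgen, a class of steroid hormone that acts on muscle, and flutamide is a drug that opposes the action of androgens. Muscles of 1 animal differ in transcript levels with fibre type, metabolism and the nerve, vessel and connective tissue they hold. In bulk RNA, fewer cells of a type and less RNA per cell cannot be told apart.

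Both species were annotated with zebra finch Ensembl identifiers, which no source used here ties to a gene name (0 of them matched a manakin gene table). Members are named by these identifiers, 2 at most for each direction, or by their rank in mean finch PEC level, and no function is stated. For the same reason the muscle labels were not checked against marker genes, and no list of another cell type was measured. Manakin reads had been assigned to zebra finch genes, so a level compared between the species also carries the divergence of their sequences. By totals inferred from the RPKM values, the libraries held 9742206 to 15434530 reads in manakin and 14341212 to 23458937 in finch. The manakin SH +T library 2 stood apart, with 349 genes at 10 RPKM or more and over 8 times every other manakin library, 2 of them members. Several results that rest on it, but not all, are given with and without it.

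The rule narrowed the genes in steps. In 136 genes PEC was at least 1.3 times SH in all 6 finches, and 106 of these reached 5 RPKM in finch PEC. Of the 106, 42 were below 5 RPKM in manakin, and 32 of those had no entry in any of the 12 manakin libraries, so that their manakin muscle ratio is unknown. Among the 64 that were measurable in both species, 28 met the limit on the manakin ratio and are the members, and 36 did not. The lowest ratio in any single finch was 1.302 in the member nearest the limit and 1.298 in the gene just outside. In manakin the highest ratio inside was 1.16 and the nearest outside was 1.252. The lowest manakin mean inside was 5.90 RPKM against 4.79 outside, and the lowest finch PEC mean was 5.48 RPKM against 3.86.

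The members spanned a wide range of levels in finch. Their PEC means ran from 5.48 to 1942 RPKM (median 79.6) and their SH means from 1.57 to 376 RPKM (median 31.7). By PEC mean, 1 member lay below 10 RPKM, 17 between 10 and 100, 7 between 100 and 500, and 3 at 500 or more. The ratio of the PEC mean to the SH mean was 1.45 to 5.81 (median 2.05), being below 2 in 14 members, from 2 to below 4 in 11 and at least 4 in 3. In 9 members every finch PEC library exceeded every SH library, and in the other 19 the separation held within birds but not across them. The rule favoured such a separation, and its share over all genes was not counted, so the 9 are a description. Together the 28 genes took 0.768% ± 0.237 of all RPKM in finch PEC and 0.335% ± 0.112 in SH (SD, n = 6 each). Much of this came from the most abundant member. In single birds the PEC share was 0.478% to 1.11% with that member and 0.342% to 0.608% without it. In SH it was 0.210% to 0.532% with that member and 0.196% to 0.327% without it.

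**Figure D1:**
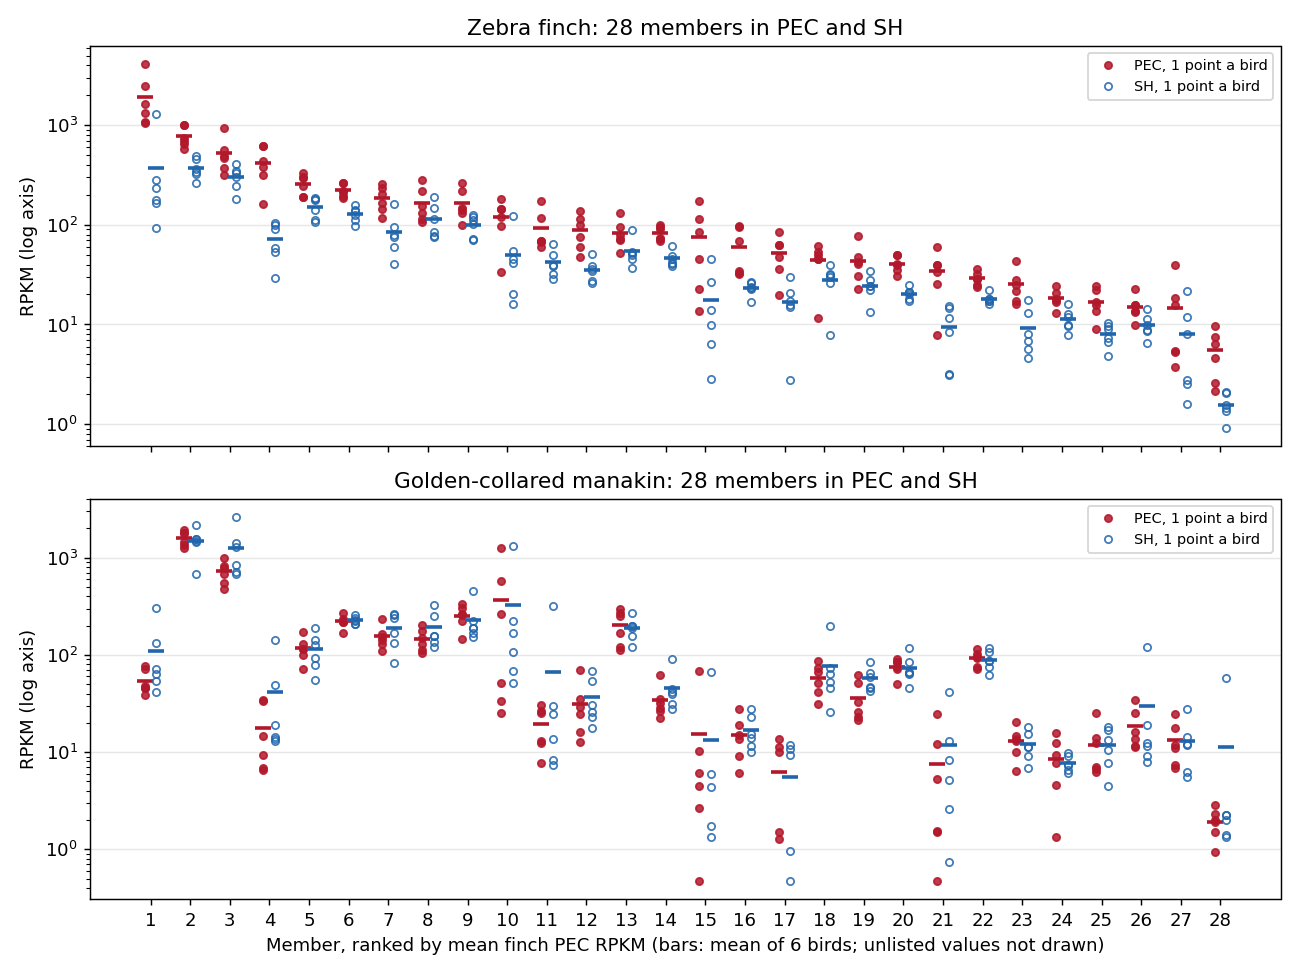
RPKM on a log axis of the 28 members in PEC (filled red) and SH (open blue), 1 point for each bird and a bar at the mean of 6, with members ranked by mean finch PEC level; zebra finch above, golden-collared manakin below. In finch the PEC means fall from 1942 to 5.48 RPKM and lie above the SH means throughout, while in manakin the points of the muscles intermix.

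ENSTGUG00000012929 was the most abundant member in finch PEC. Its PEC level was 1080, 1320 and 1050 RPKM in the T-only birds and 1630, 4110 and 2470 RPKM in the flutamide birds. In SH the same birds had 167, 282 and 92.7 RPKM, and 178, 1300 and 235 RPKM. The flutamide bird 2 was the highest in both muscles, and its SH value exceeded the PEC values of the T-only birds 1 and 3, although its own PEC value was 3.15 times its SH value. Across the 6 birds the ratio ran from 3.15 to 11.3. In manakin the gene was at 38.7 to 76.7 RPKM in PEC and 41.7 to 302 RPKM in SH, and its PEC mean was 0.488 times its SH mean.

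ENSTGUG00000010842 had the largest finch ratio, 5.81. Its finch PEC level was 315, 433 and 161 RPKM in T-only birds and 385, 616 and 625 RPKM in flutamide birds, against 100, 104 and 58.5 RPKM and 54.0, 90.6 and 29.5 RPKM in SH. The groups of PEC and SH libraries did not overlap, and the ratio of single birds ran from 2.75 to 21.2. In manakin its SH level was above its PEC level in 5 of 6 birds by the bird ratios of 0.689, 0.242 and 1.06 (+T) and 0.528, 0.348 and 0.652 (-T). ENSTGUG00000001462, the next most abundant after ENSTGUG00000012929, was at 1000, 578 and 647 RPKM (T-only) and 748, 1010 and 692 RPKM (flutamide) in finch PEC. Its finch SH values, 321, 360 and 266 RPKM and 343, 455 and 489 RPKM, all lay below these. In manakin it was higher than in finch in both muscles, with means of 1596 ± 287 RPKM in PEC and 1483 ± 472 RPKM in SH (SD, n = 6 each).

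No single finch set the difference, since the rule demanded it of each, but the birds did not carry it equally. The median ratio over the 28 members was 1.76 to 2.23 in the 6 birds. Over all genes with at least 1 RPKM in either muscle of the bird and an entry in SH, the median was 0.527 to 0.903. Most of these genes thus had lower RPKM in PEC than in SH. The T-only bird 2 gave the lowest of the 6 ratios for 8 members and the flutamide birds 2 and 3 for 7 and 5. Without the T-only bird 2 the same rule would find 47 genes, and without the flutamide bird 3 it would find 43. With the libraries rescaled to a common median ratio over genes, 88 genes passed, 19 of the 28 among them.

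As a description, limma called 24 of the 28 higher in finch PEC at an adjusted p below 0.05, where 3.96% of the 9606 genes tested were called higher and 27.4% lower. For manakin PEC against SH it called 0 of 28, with 0.1% of 8989 genes called higher and 0.701% lower. At an unadjusted p below 0.05 this contrast had 2 members, against 1912 of the 8989 genes. For the difference between these muscle contrasts in the 2 species it called 3 of 28, against 0.18% of 7237 genes called higher and 0.746% lower. With median-ratio scaling the finch calls were 1003 higher and 976 lower, 26 members among the higher, so the excess of lower calls rests on the scaling. The count of 3 was 6 with median-ratio scaling, 9 with the bird as a block and 6 without the manakin SH +T library 2. Over all 7237 genes 68, 131 and 77 were called in these settings, against 67. The rule used these contrasts, so nothing is read from the counts.

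In manakin the members lay on both sides of equal RPKM in the muscles, with the upper end limited by the rule. The median ratio of PEC to SH over the members was 0.627 to 1.09 in the 6 birds. Over all genes, limited by level and SH entry as in finch, it was 0.554 to 0.974. Members had the higher median in each bird except the -T bird 1 (0.895 against 0.974). The PEC means were 1.92 to 1596 RPKM (median 35.2) and the SH means 5.53 to 1483 RPKM (median 62.2). The ratio of means was 0.172 to 1.16 (median 0.932), being below 0.5 in 4 members, from 0.5 to below 0.8 in 7, from 0.8 to below 1 in 4 and 1 or more in 13. No member had PEC above SH in 0 or in 6 of the 6 manakins. PEC was above SH in 1 bird for 4 members, in 2 birds for 7, in 3 birds for 9, in 4 birds for 5 and in 5 birds for 3. By the median of the bird ratios in place of the ratio of means, 4 members were past the limit of the rule, with medians of 1.31 to 2.56, and these had more RPKM in PEC in most manakins. The members' share of all RPKM was 0.533% ± 0.0608 in manakin PEC and 0.647% ± 0.154 in SH (SD, n = 6 each). The highest SH share, 0.939%, was that of the SH +T library 2.

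Set against finch, the manakin levels were lower in PEC for 19 of 28 members, 12 of them at or below 0.5 times the finch level, and at least 2 times the finch level for 4. In SH the manakin level was lower for 8 members and at least 2 times the finch level for 12. The median manakin level was 0.769 times that of finch in PEC and 1.64 times that of finch in SH. The lower finch SH and the higher finch PEC level were both part of the rule, and no test was made of these ratios between species.

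**Figure D2:**
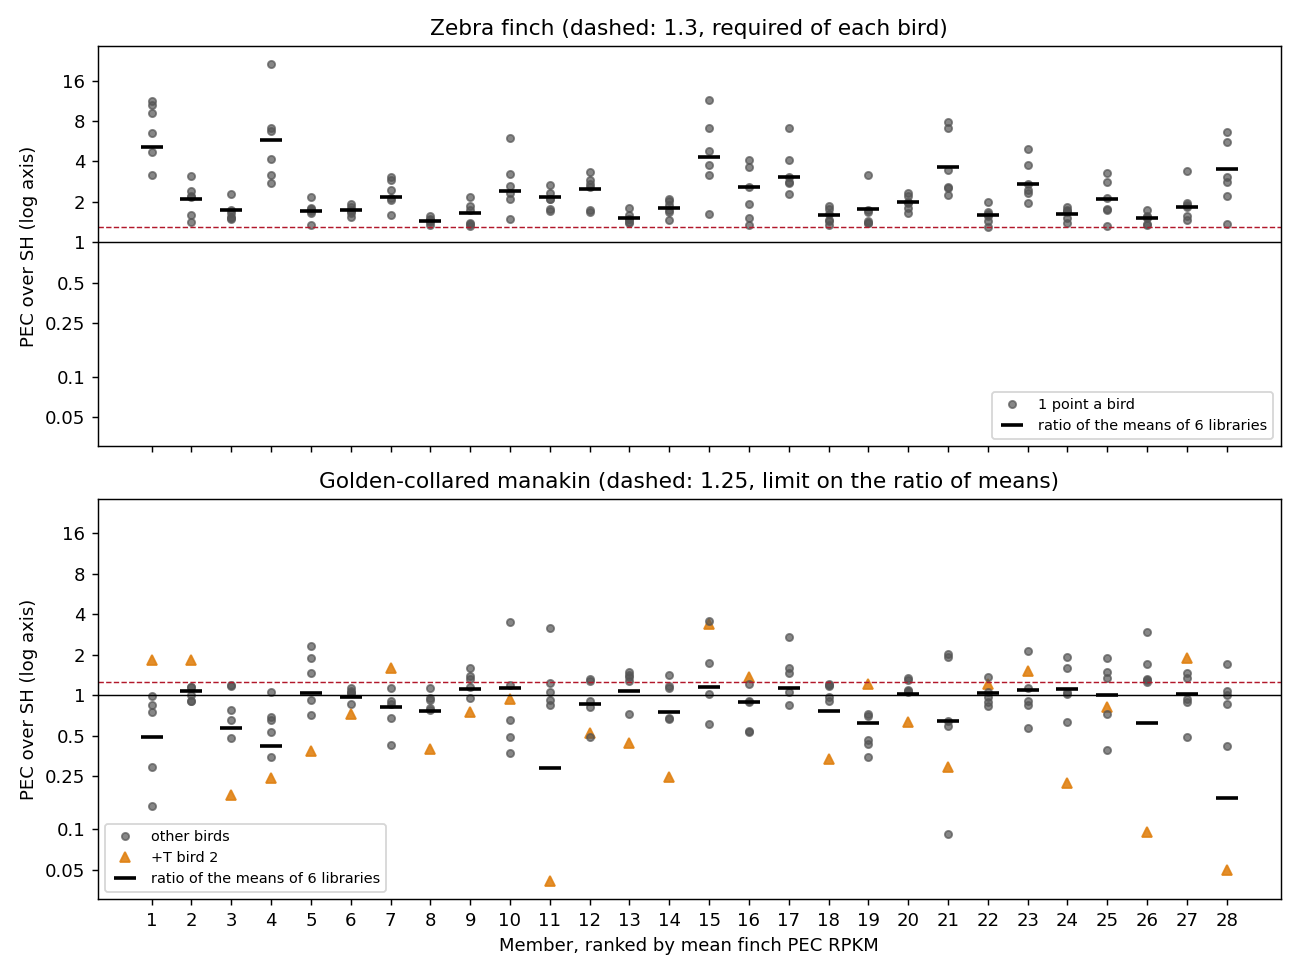
Ratio of PEC to SH RPKM on a log axis for the 28 members, ranked by mean finch PEC level, 1 point for each bird and a black bar for the ratio of the means of 6 libraries; zebra finch above, golden-collared manakin below, where orange triangles mark the +T bird 2 and a ratio with no entry in 1 or both muscles is not drawn. All finch points lie above the dashed line at 1.3, while the manakin points scatter on both sides of 1 and reach 0.0413 in the +T bird 2.

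The manakin SH +T library 2 weighed on several of the low manakin ratios. It was the highest of the 6 manakin SH libraries for 15 of 28 members. The same held for 38.8% of the 6226 genes with a manakin mean of at least 5 RPKM. It was at least 2 times every other SH library for 9 members, and the share over all genes was not counted. A high SH value lowers the ratio that the rule limited, so the rule favoured such members and both counts are descriptions. ENSTGUG00000001194 had the lowest manakin ratio, 0.172, and was at 57.8 RPKM in that library against 1.34 to 2.26 RPKM in the other 5 SH libraries. ENSTGUG00000007622, with the next lowest ratio of 0.289, was at 317 RPKM there against 7.28 to 29.7 RPKM. Without that library the ratios of means became 1.04 and 1.15. ENSTGUG00000001194 then had manakin means of 1.92 RPKM in PEC and 1.85 RPKM in SH, below the 5 RPKM of the rule. Over the 28 members the ratio then ran from 0.434 to 2.98, with 4 members past the limit of the rule and 15 below 1. Selection without that library would find 27 genes, 23 of them among the 28, so 5 members owed their place to it.

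Within finch, the treatments left no member past the threshold in either muscle. In PEC limma called 0 of 28 members between T-only and flutamide birds at an adjusted p below 0.05, and 0.0% of 9606 genes in either direction. At an unadjusted p below 0.05 there were 4 members and 514 genes (5.35%), and limma-voom on the recovered reads also called 0. The log2 difference of RPKM + 1, on which all changes here are given and which understates those of low genes, was below 0 in 19 members and above 0 in 9. Its median was -0.20 over the members and 0.06 over all genes. The requirement of 1.3 times more RPKM in PEC in each bird bears on these values. A gene that was much lower in the PEC of 1 treatment alone would have been removed by it. ENSTGUG00000001194, with a difference of 0.52, reached the finch PEC limit of the rule only through the T-only birds. The T-only and flutamide birds did not overlap in 3 members that were lower in T-only birds (3.3% of all genes) and in 0 that were higher (5.11%).

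ENSTGUG00000003897 had the smallest p of these. Its PEC level was 34.7, 32.1 and 32.5 RPKM in T-only birds and 68.2, 96.9 and 95.8 RPKM in flutamide birds, so that the groups were far apart beside their spread. The log2 difference was -1.35 ± 0.21 (SE), but with adjustment over 9606 genes it was not called (limma adjusted p = 0.181, and 0.0669 to 0.613 over 16 alternatives). In SH the same birds had 22.7, 23.9 and 17.0 RPKM and 26.6, 23.5 and 26.2 RPKM, a difference of -0.26 ± 0.21 (limma adjusted p = 0.565). The difference between the muscles in this effect was -1.09 ± 0.30 and was not called either (limma adjusted p = 0.351). ENSTGUG00000011164 was also lower in T-only PEC, at 145, 164 and 118 RPKM against 233, 259 and 203 RPKM, with no overlap and no call (log2 difference -0.70 ± 0.30, limma adjusted p = 0.891). The members with the smallest p among those higher in T-only PEC were ENSTGUG00000008967 and ENSTGUG00000009958, with differences of 1.07 ± 0.57 and 0.82 ± 0.52 (limma adjusted p = 0.955 and 0.988).

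In finch SH, 589 of 9606 genes were called higher in T-only birds (6.13%) and 6 lower (0.0625%), and 0 of the 28 members were called in either direction. At an unadjusted p below 0.05 there were 2 members, against 1862 genes (19.4%), and limma-voom called 0 members as well. The members' differences were below 0 in 19 and above 0 in 9, with a median of -0.28, while the median over all genes was 0.21. With median-ratio scaling the all-gene median moved to -0.01 and that of the members to -0.53, with 21 below 0 and 7 above. The calls over all genes were then 283 higher and 31 lower, and 248 and 33 with quantile scaling, with 0 members called in each. Birds of the treatments did not overlap in 1 member higher in T-only SH (23.1% of all genes) and 2 lower (3.83%). The requirement of 1.3 times more RPKM in PEC in each bird bears on these counts, since a gene that was much higher in the SH of T-only birds alone would have been removed by it.

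The members nearest to a call in finch SH were ENSTGUG00000011164 and ENSTGUG00000009958. ENSTGUG00000011164 was at 59.4, 79.2 and 40.4 RPKM in T-only SH and 76.1, 163 and 95.0 RPKM in flutamide SH, a difference of -0.87 ± 0.30 (SE, limma adjusted p = 0.116). The T-only bird 2 and the flutamide bird 1 overlapped. ENSTGUG00000009958 was at 17.1, 30.2 and 20.8 RPKM in T-only SH and 15.8, 2.77 and 15.1 RPKM in flutamide SH, with every T-only bird above every flutamide bird (difference 1.20 ± 0.52, limma adjusted p = 0.224). Of the others with the smallest p, ENSTGUG00000010842 differed by 0.68 ± 0.42 and ENSTGUG00000005900 by -0.39 ± 0.19 (limma adjusted p = 0.421 and 0.283).

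In manakin, members that the rule admitted through 1 treatment only were among those with the largest differences between the treatments. In PEC 1 member was called higher in +T than in -T birds, where 0.133% of 8989 genes were called higher, and 1 was called lower, where 0.267% were. Another 4 members beside these 2 were below an unadjusted p of 0.05, making 6, against 1193 genes (13.3%). Differences were above 0 in 16 members and below 0 in 12, with a median of 0.12 against -0.18 over all genes. With median-ratio scaling the medians were 0.32 and 0.00, and 19 members were above 0. Of the 24 members that reached 5 RPKM in both treatments, 1 was called higher and 0 lower, 13 were above 0 and 11 below, and the median was 0.01. The 1 called higher, ENSTGUG00000006540, met the limit on the manakin ratio only with the SH +T library 2. Among these 24, 4 were below an unadjusted p of 0.05. Of the 4 others, the member of rank 15 in mean finch PEC level rested mainly on the +T bird 1. It had 68.3 RPKM in PEC and 66.6 RPKM in SH there, and at most 10.3 RPKM in the other manakin birds. Without the SH +T library 2, which enters the PEC comparison only through the shared variance, 4 of 28 members were called, 2 in each direction, and 168 genes in all. The treatment groups did not overlap in 4 members higher in +T (5.02% of all genes) and 3 lower (17.4%). Those higher included ENSTGUG00000008967 and those lower ENSTGUG00000009958, each admitted by the rule only through the treatment in which it was high.

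ENSTGUG00000009958 was lower in both muscles of the +T manakins, but it reached the manakin limit of 5 RPKM only through the -T birds in which it was high, so its calls are not independent of its choice and describe the gene alone. In PEC it was at 1.28, 0 and 1.52 RPKM in +T birds and 10, 13.5 and 11.3 RPKM in -T birds, from 14, 0 and 14 reads against 99, 155 and 138. In SH it was at 0.472, 0 and 0.958 RPKM in +T and 11.8, 9.25 and 10.7 RPKM in -T, from 4, 0 and 10 reads against 157, 117 and 136. The groups were far apart in each muscle, and the +T bird 2 had no read in either. The log2 difference was -2.81 ± 0.41 (SE) in PEC (limma adjusted p = 0.0218) and -3.02 ± 0.41 in SH (limma adjusted p = 0.0354), the muscles coming from the same birds. Over all 8989 genes in SH, 1 was called higher (0.0111%), which was not a member. Only 1 was called lower (0.0111%), and that was ENSTGUG00000009958 itself. The adjusted p ran from 0.00877 to 0.130 over 17 alternatives in PEC and from 0.0170 to 0.255 over 16 in SH, and the call was lost in 9 and in 10 of them. The losses included leaving out any 1 library of the comparison other than the +T library 3.

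In finch this gene was at 19.8 to 84.8 RPKM in PEC, above every manakin library. Its finch SH values, 2.77 to 30.2 RPKM, were above the manakin +T values but overlapped the -T values. The differences between T-only and flutamide birds were above 0 in both muscles without being called. Its +T means in manakin were 0.933 ± 0.817 RPKM in PEC and 0.477 ± 0.479 RPKM in SH (SD, n = 3 each). Whether its treatment differences differ between the species was not tested, the treatments not being the same.

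ENSTGUG00000006540 was the member called higher in manakin +T PEC. Its level was 582, 1250 and 265 RPKM in +T and 25.2, 33.9 and 51.8 RPKM in -T birds, the lowest +T bird being above every -T bird. The log2 difference was 3.99 ± 0.71 (SE, limma adjusted p = 0.0373). It reached the manakin limit of 5 RPKM in both treatments. Its manakin ratio of means was 1.135, but 2.98 without the SH +T library 2, past the limit of the rule. It thus owed its place to a +T library, and its treatment differences are not independent of the choice. The PEC call was lost in 11 of 17 alternatives, with limma adjusted p from 0.00767 to 0.171. The losses included leaving out any 1 PEC library other than the +T library 3. In SH the +T birds had 167, 1330 and 224 RPKM and the -T birds 68.3, 51.6 and 106 RPKM, again without overlap, and the difference of 2.33 ± 0.71 was not called (limma adjusted p = 0.283). Without the SH +T library 2 it was 1.41 ± 0.54 (limma adjusted p = 0.458). In finch the gene was at 146, 183 and 119 RPKM in T-only PEC and 96.4, 144 and 34.0 RPKM in flutamide PEC, values that overlap (difference 0.91 ± 0.62, limma adjusted p = 0.988).

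Other members with the smallest p in manakin PEC were ENSTGUG00000008967 and ENSTGUG00000006768. ENSTGUG00000008967 was at 24.7, 12.2 and 5.24 RPKM in +T PEC and 0.472, 1.49 and 1.53 RPKM in -T PEC, with no overlap and no call (log2 difference 2.61 ± 0.66, limma adjusted p = 0.115). It reached the manakin limit only through the +T birds, with a -T mean of 1.99 RPKM over both muscles, so a +T excess was favoured by the rule. ENSTGUG00000006768 was at 112, 120 and 167 RPKM in +T PEC and 295, 252 and 270 RPKM in -T PEC, a difference of -1.05 ± 0.28 (limma adjusted p = 0.121). Both were called without the SH +T library 2 (limma adjusted p = 0.0422 and 0.0327), and in 0 of the other 16 alternatives. With 3 birds against 3, an exact permutation test of 1 gene cannot go below p = 0.1, so groups without overlap are a description.

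In manakin SH 9 members were below an unadjusted p of 0.05, against 1036 genes (11.5%). The differences were above 0 in 19 members and below 0 in 9, with a median of 0.32 against 0.11 over all genes. Without the SH +T library 2 the medians were 0.17 and -0.004, with 17 members above 0. Of the 24 members that reached the manakin limit in both treatments, 16 were above 0 and 8 below (median 0.29), and limma called 0. Among these 24, 7 were below an unadjusted p of 0.05. Without the SH +T library 2 there were 4, and the median was 0.17, with 15 above 0 and 9 below. Some of the 24 met the limit on the manakin ratio only with that library. The treatment groups did not overlap in 7 members higher in +T (7.75% of all genes) and 1 lower (6.8%). The 1 lower was ENSTGUG00000009958, which the rule admitted only through its -T levels, and the 7 included ENSTGUG00000008967. ENSTGUG00000008967, which the rule admitted through its +T levels, was at 12.9, 41.4 and 8.20 RPKM in +T and 5.14, 0.739 and 2.57 RPKM in -T (difference 2.39 ± 0.66, limma adjusted p = 0.254, and 1.75 without the +T library 2). ENSTGUG00000007622 differed by 2.60 ± 0.79 (limma adjusted p = 0.283), a value that rests on the 317 RPKM of the SH +T library 2 and was 1.43 without it. After ENSTGUG00000009958, the smallest p among members lower in +T was that of ENSTGUG00000002188, which differed by -0.36 ± 0.24 (limma adjusted p = 0.575) and by -0.20 without the +T library 2.

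**Figure D3:**
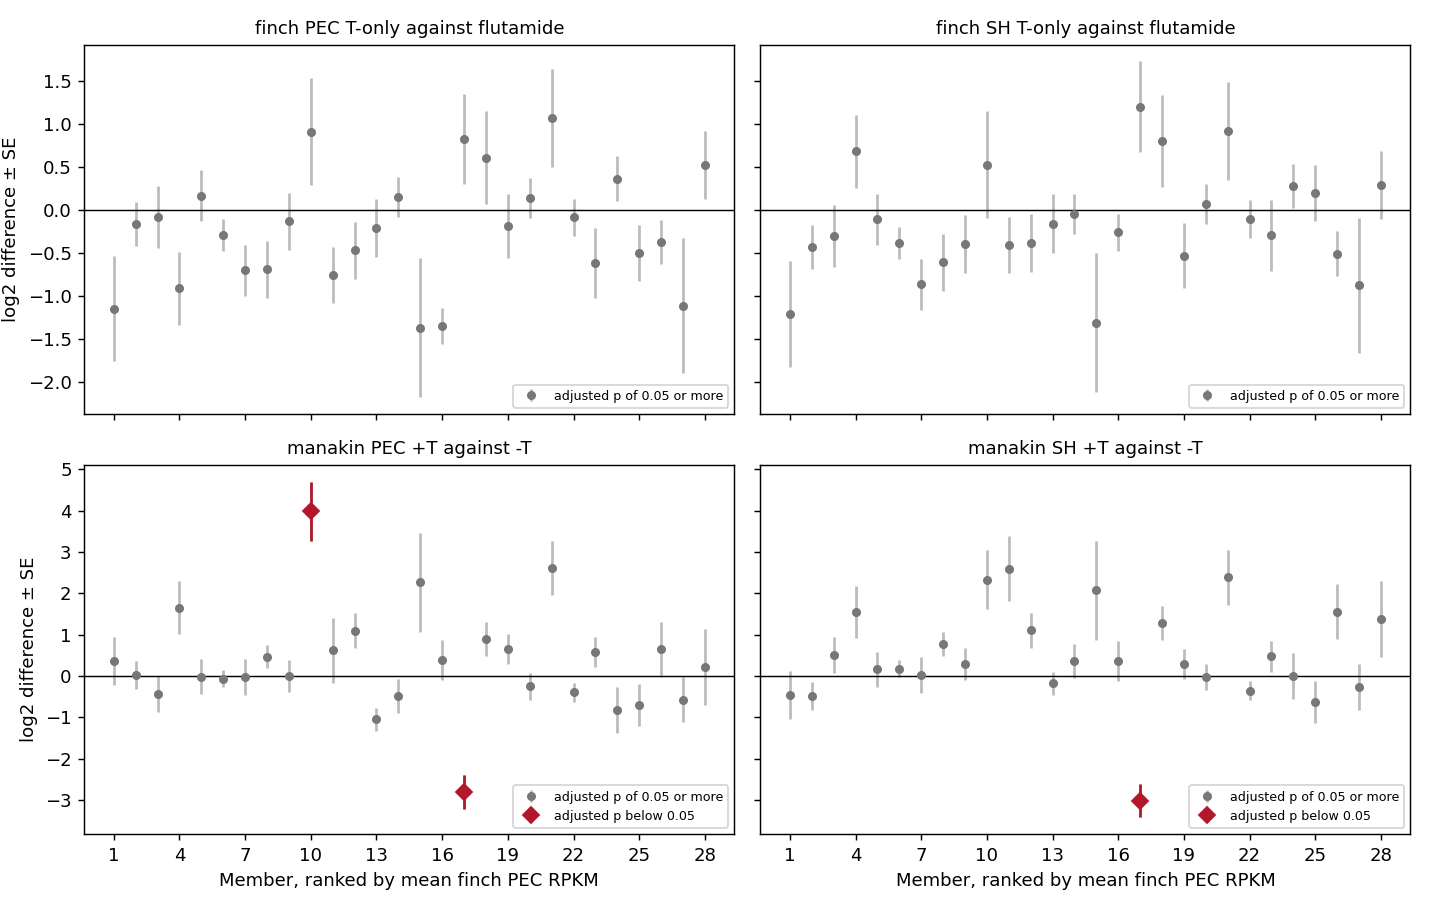
Log2 difference of RPKM + 1 between treatments, with its standard error, for the 28 members ranked by mean finch PEC level, in each muscle of each species (T-only minus flutamide in finch, +T minus -T in manakin, 3 birds a group; the vertical axis is wider in manakin). Red diamonds mark the members called by limma at an adjusted p below 0.05, which are 0 in finch, 2 in manakin PEC (3.99 and -2.81) and 1 in manakin SH (-3.02).

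Whether the treatment effect differed between PEC and SH was tested as an interaction. It compares PEC to SH ratios between treatments, and the rule had limited these ratios, in each finch and by the means in manakin. The members' counts and medians for it are therefore not independent of the choice and are descriptions. In finch limma called 0 of 28 members and 0.0% of 9606 genes in either direction (706 genes, 7.35%, and 2 members at an unadjusted p below 0.05; limma-voom called 0 members). The members with the smallest p in each direction were ENSTGUG00000003897, given above, ENSTGUG00000010842 (-1.59 ± 0.60, limma adjusted p = 0.488), ENSTGUG00000001462 (0.27 ± 0.36) and ENSTGUG00000011549 (0.28 ± 0.41, limma adjusted p = 1.00 for both). The values of ENSTGUG00000010842 went in opposite directions in the muscles, with T-only means of 303 ± 136 against 542 ± 136 RPKM in PEC and 87.5 ± 25.2 against 58.0 ± 30.8 RPKM in SH (SD, n = 3 each). The median interaction was 0.06 over the members and -0.16 over all genes, with 16 members above 0 and 12 below. Under median-ratio scaling 21 were above and 7 below. If the PEC T-only library 2 was left out, 12 were above and 16 below, and if the SH T-only library 3 was, 9 and 19.

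In manakin limma called 0 of 28 and 0.0% of 8989 genes in either direction for the interaction (459 genes, 5.11%, and 1 member at an unadjusted p below 0.05; limma-voom called 0 members). ENSTGUG00000006540 differed between the muscles by 1.66 ± 1.01 and ENSTGUG00000001462 by 0.52 ± 0.48, both toward PEC in +T birds (limma adjusted p = 0.818 and 0.834). ENSTGUG00000006768 differed by -0.87 ± 0.39 and ENSTGUG00000007622 by -1.98 ± 1.12 (limma adjusted p = 0.818 for both). Without the SH +T library 2 these values were 2.58 for ENSTGUG00000006540, 0.12 for ENSTGUG00000001462, -0.54 for ENSTGUG00000006768 and -0.82 for ENSTGUG00000007622, with limma adjusted p of 0.980 or more. The median was -0.13 over the members and -0.30 over all genes, with 10 members above 0 and 18 below. Median-ratio scaling turned this split to 19 above and 9 below, with medians of 0.17 and -0.04.

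**Figure D4:**
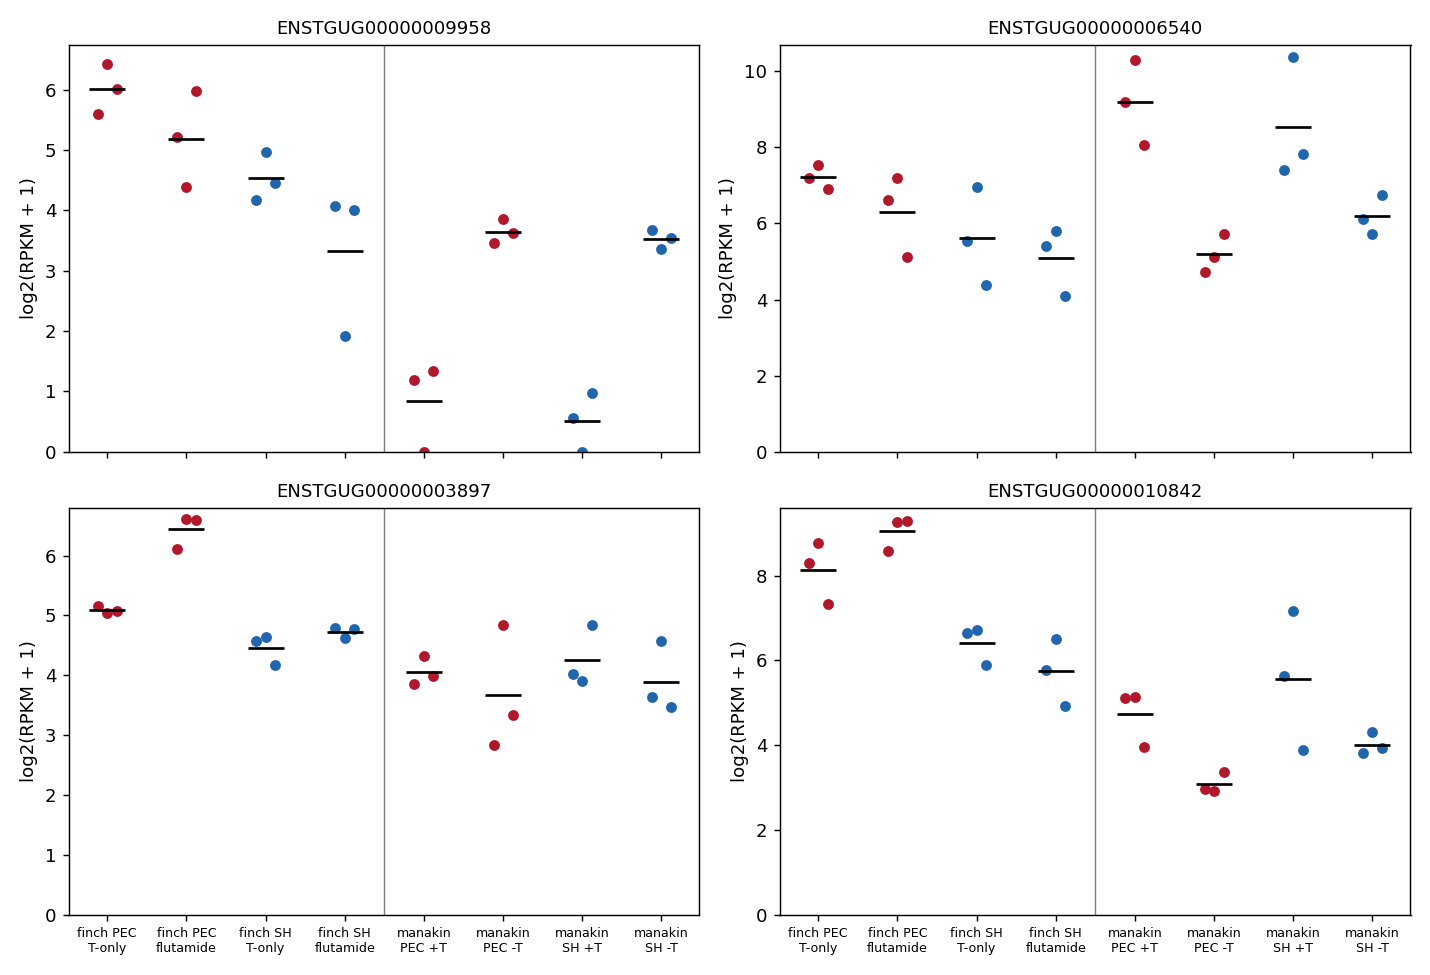
Log2 of RPKM + 1 in every library for 4 members named in the treatment or interaction results, by species, muscle and treatment (red PEC, blue SH, 3 birds a group, black bar at the mean, vertical axes that differ). Of these, only ENSTGUG00000009958 and ENSTGUG00000006540 were called for a treatment, in manakin. ENSTGUG00000009958 is near 0 in both muscles of +T manakins, and ENSTGUG00000006540 is high in them. ENSTGUG00000003897 is higher in flutamide than in T-only finch PEC (68.2 to 96.9 against 32.1 to 34.7 RPKM). ENSTGUG00000010842 is at 161 to 625 RPKM in finch PEC and at most at 142 RPKM in manakin, in the SH +T library 2.

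The members were similar in length to other genes. Their recovered gene lengths had a median of 1181.5 bases (192 to 2055), against 1199 for all genes listed in finch, and were the same in both species for 28 of 28. Of the members, 26 had reads in all 24 libraries, and the lowest count of a member in any finch library was 25 reads. The spread between birds was wide. Over the 6 libraries of a muscle, the SD as a share of the mean had a median over members of 38.9% in finch PEC, 28.5% in finch SH, 40.7% in manakin PEC and 49.2% in manakin SH.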

How the data were processed

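Libraries were strand-specific and polyA-selected, from Trizol RNA treated with DNase, per the labels' protocols. The deposited values are RPKM per gene, per the file headers, which name Ensembl release 68. CASAVA, cutadapt and Bowtie 0.12.9 are named in the submitters' processing notes without order or settings, and the sources used here do not give the genome build or how reads were counted. Gene lengths and library totals were inferred from the RPKM values themselves, and reads were recovered as RPKM times length and total. The lengths were chosen so that reads come out whole, so whole counts are not an independent check. All of 113221 manakin and 136090 finch values came out whole within 1e-09, and 64.2% of the manakin counts were even, against 49.1% in finch.

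Members and lists were chosen with earlier results of these data known. Gene lists and cell type markers that needed gene names were not used. Named were the members with the highest finch PEC, the largest finch ratio and the lowest manakin ratio, 2 each, and the 2 members in each direction with the smallest p in each treatment or interaction comparison.

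Tests were made with limma 3.58.1 (R 4.3.3) on log2(RPKM + 1), with a variance trend and a mean for each of the 4 groups of a species (12 libraries). Genes with at least 1 RPKM in 3 libraries were tested, with Benjamini-Hochberg adjustment over all of them. Alternatives were pseudocounts of 0.1 and 5, no filter, a filter at 5 RPKM, median-ratio and quantile scaling, limma-voom on recovered reads, a block for the bird, a fit on the 6 libraries compared, each library left out, and, chosen after seeing the data, no variance trend and a manakin PEC fit without the SH +T library 2. PEC and SH of a number share a bird code in the deposited files, so they were paired by animal in the rule, the bird ratios and the block. The main fits had no block and treated the libraries as independent. Within a bird, deviations of the muscles from their group means had a correlation of 0.283 to 0.370 in finch and -0.147 to 0.240 in manakin. Other steps ran in Python 3.11.15 (pandas 2.3.3, numpy 2.4.6), with plots from matplotlib 3.10.9.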

Additional observations from a re-analysis of the deposited data

Results flagged for a closer look

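For 3 members the PEC minus SH difference was called different between the species by limma: ENSTGUG00000012929 by 3.48, ENSTGUG00000010842 by 3.39 and ENSTGUG00000005900 by 0.84 on the log2 scale, finch minus manakin. The rule that chose the members used this difference, so the values are a description. ENSTGUG00000001462 was above 1 in the ratio of PEC to SH in the 3 manakin +T birds (1.15, 1.84 and 1.15) and below 1 in the 3 -T birds (0.901, 0.907 and 0.999). Its interaction of 0.52 was not called (limma adjusted p = 0.834) and was 0.12 without the SH +T library 2.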

How the results depend on the processing

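In the finch treatment comparisons and both interactions, 0 members were called under every alternative run. The 2 members called in manakin PEC were 1 with a pseudocount of 0.1, a pseudocount of 5, no filter or no variance trend, and 0 with quantile scaling, limma-voom or a fit on the 6 libraries compared. Leaving out 1 library gave 0 to 2, and a fit without the SH +T library 2, whose spread is shared with PEC, gave 4 (chosen after seeing the data). The 1 member called in manakin SH was 0 with a pseudocount of 0.1, no filter, median-ratio scaling, limma-voom or a fit on the 6 libraries, and 0 to 1 with 1 library left out. Over all genes limma-voom called 0 in finch PEC, 473 in finch SH, 16 in manakin PEC and 0 in manakin SH. The replicate block for the bird changed no member's call in a treatment or interaction comparison. In the difference of muscle contrasts between species it gave 9 members (131 genes in all), against 3 (67 genes). Median-ratio scaling gave 6 members (68 genes) and leaving out the manakin SH +T library 2 gave 6 (77 genes). These settings were chosen after seeing the data. The number of members, 28, was 88 with median-ratio scaling, 11 with a finch ratio of at least 1.5, 15 with a manakin ratio below 1 and 26 to 47 with 1 library or finch left out. With median-ratio scaling the members above and below 0 went from 10 and 18 to 19 and 9 in the manakin interaction and from 10 and 18 to 18 and 10 in manakin PEC against SH. No named member changed sign in its comparison. Of the alternatives for named members, 30 ended a call, all for ENSTGUG00000006540 and ENSTGUG00000009958 in manakin, and 2 made one. The causes were not tested.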
